A study of Mus musculus with 8 samples.

Results

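Telomerase and the proteins that cap chromosome ends were followed in mouse embryonic stem (ES) cells, neural precursor cells (NPC) and embryonic fibroblasts (MEF). The 9 genes were Tert and Dkc1 of telomerase, Terf1, Terf2, Terf2ip, Tinf2, Acd and Pot1a of shelterin, and Rif1. They were taken by symbol, as every probe set annotated to 1 of these genes and to no other. This gave 25 of the 45037 probe sets tested on the array and 9 of the 18193 genes. Each gene was read from the probe set that was brightest over the 8 arrays, and its other probe sets are given beside it.

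Telomeres are TTAGGG repeats that shorten when linear chromosomes are copied. Telomerase adds repeats back with a reverse transcriptase, encoded by Tert, and an RNA template that dyskerin, the product of Dkc1, holds in a stable particle. Shelterin covers the repeats and keeps them from being handled as broken DNA: Terf1 and Terf2 bind the double strand, Pot1a binds the single strand, Tinf2 and Acd join these to each other, and Terf2ip binds Terf2. Rif1 is a large protein first known at yeast telomeres which in mammals acts in replication timing and at DNA breaks. Pluripotent cells are known for active telomerase, which most somatic human cells lack, while mouse somatic cells often keep some.

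All cells were labelled wild type. The 3 ES arrays were of the V6.5 line, grown with leukaemia inhibitory factor on irradiated MEFs and then passaged on gelatin without feeders. The 3 NPC arrays were of precursors differentiated from ES cells through embryoid bodies and kept in FGF2 and EGF2, as the labels name them. The 2 MEF arrays were of fibroblasts grown with serum. No strain, age or number of embryos is given for the MEF. Nothing in the labels says that the arrays of a group are of separate cultures. The p-values therefore cover array-to-array spread alone, and this may be technical. In bulk RNA, fewer expressing cells and less RNA per cell cannot be told apart.

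Values are log2(intensity + 16) after quantile normalization, a scale whose lowest possible value before normalization is 4. Log2 values correlated at 0.967 to 0.992 within groups and at 0.858 to 0.873 between groups. The labels were met by their markers: all 3 ES markers (Pou5f1, Nanog, Zfp42) were lower in NPC and in MEF, Nes, Fabp7 and Olig2 were higher in NPC than in ES cells, and all 3 fibroblast markers (Col1a1, Col1a2, Thy1) were higher in MEF than in both others. The fourth precursor marker, Sox2, had an NPC minus ES difference of -0.98 and was not called. The summed intensity of 5 macrophage markers was 868 to 889 in MEF against 60.9 to 91.6 in ES cells and 71.6 to 88.1 in NPC. The 8 proliferation markers summed to 24422 to 25939 in ES cells, 15582 to 16962 in NPC and 11971 to 12032 in MEF. Of 5 neuron markers, Map2 was higher in NPC than in ES cells, Stmn2 was lower and the other 3 were not called. The part of these cells and of proliferation in the results below was not tested.

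The sequences before the annotated start sites were available for 7 of the 9 members in RefSeq (GRCm38.p6), with 2 neighbouring starts for Terf2. They are shown for Tert and Dkc1, the telomerase pair that was highest in ES cells, and for Terf2, whose level was highest in NPC. Each line is the 250 bases upstream of the start, 5′ to 3′ on the gene's strand, and capitals mark the GC box GGGCGG on either strand.

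Tert (chr13:73626661-73626910, plus strand): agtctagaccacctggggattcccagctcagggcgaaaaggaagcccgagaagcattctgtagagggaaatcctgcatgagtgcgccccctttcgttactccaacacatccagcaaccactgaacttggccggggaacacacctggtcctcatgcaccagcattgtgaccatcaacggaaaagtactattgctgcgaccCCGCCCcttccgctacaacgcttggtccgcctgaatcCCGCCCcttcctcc

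Dkc1 (chrX:75095604-75095853, plus strand): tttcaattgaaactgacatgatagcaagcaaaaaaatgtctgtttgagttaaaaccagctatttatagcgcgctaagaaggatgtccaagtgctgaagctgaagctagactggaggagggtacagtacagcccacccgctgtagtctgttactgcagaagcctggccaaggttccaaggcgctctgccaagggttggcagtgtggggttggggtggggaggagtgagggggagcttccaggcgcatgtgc

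Terf2 (chr8:107096546-107096795, minus strand): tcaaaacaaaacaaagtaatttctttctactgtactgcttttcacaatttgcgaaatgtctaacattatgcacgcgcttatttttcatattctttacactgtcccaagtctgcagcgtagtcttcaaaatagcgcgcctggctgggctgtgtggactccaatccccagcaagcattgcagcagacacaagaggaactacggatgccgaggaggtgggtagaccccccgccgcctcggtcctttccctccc

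The Tert sequence held 2 GC boxes, which began 51 and 14 bases before the start, and both read CCGCCC on this strand. Pot1a held 1, which began 117 bases before its start, and the windows of Dkc1, Terf2, Terf2ip, Tinf2 and Acd held none. Of all 32851 windows of this length, 32.7% held a GC box. None of the 8 member windows held the E-box CACGTG (6.02% of all windows), the letters TTTNGCGC of an E2F-type site (1.13%) or the octamer ATTTGCAT (1.6%), searched on both strands. The count of CG dinucleotides was 12 for Tert, 5 for Dkc1, 11 for Terf2, 9 for Terf2ip, 20 for Tinf2, 6 for Acd and 19 for Pot1a, beside a median of 6 over all windows. The windows of Acd, Terf2 and Terf2ip lay within 6.31 Mb of chromosome 8.

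NPC minus ES compares cultured neural precursors with cultured ES cells. Tert, Terf1 and Rif1 were lower in NPC, Terf2 was higher, and the other 5 genes were not called. A gene was called at a limma adjusted p under 0.05 with a log2 difference of at least 1, and 22.9% of all genes were called by this rule, 10% higher and 12.9% lower. The median difference of the 9 genes was -0.73, beside -0.05 for all genes. Arrays of the groups did not overlap for 8 of the 9 genes, which held for 52.8% of all genes. Without the minimum difference 8 of the 9 passed, Terf2ip alone staying out, where 46.9% of all genes passed.

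In MEF, set against the same ES arrays, 6 of the 9 genes were lower and none was higher, with 25% of all genes called, 12.2% higher and 12.8% lower. The 6 were Tert, Dkc1, Terf1, Tinf2, Pot1a and Rif1. The median difference of the 9 was -1.19, beside -0.04 for all genes, and arrays did not overlap for 8 of the 9 (67.8% of all genes). Without the minimum difference 7 of the 9 passed, where 46.4% of all genes did. Between MEF and NPC, Terf2 alone was called, lower in MEF, with 18.5% of all genes called, 10.5% higher and 7.95% lower. There the arrays of 7 members did not overlap (58% of all genes), and 5 passed without the minimum difference (39.3% of all genes). The MEF counts depended on how the arrays were scaled: the 6 became 3 (Tert, Terf1 and Rif1) under median centring, where 26.3% of all genes were called. Under the deposited scaling they became 2 lower (Tert and Rif1) and 1 higher (Terf2), where 30.1% of all genes were called. Of these calls over all genes, 65.1% were higher in MEF under median centring and 79.4% under the deposited scaling.

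**Figure D1:**
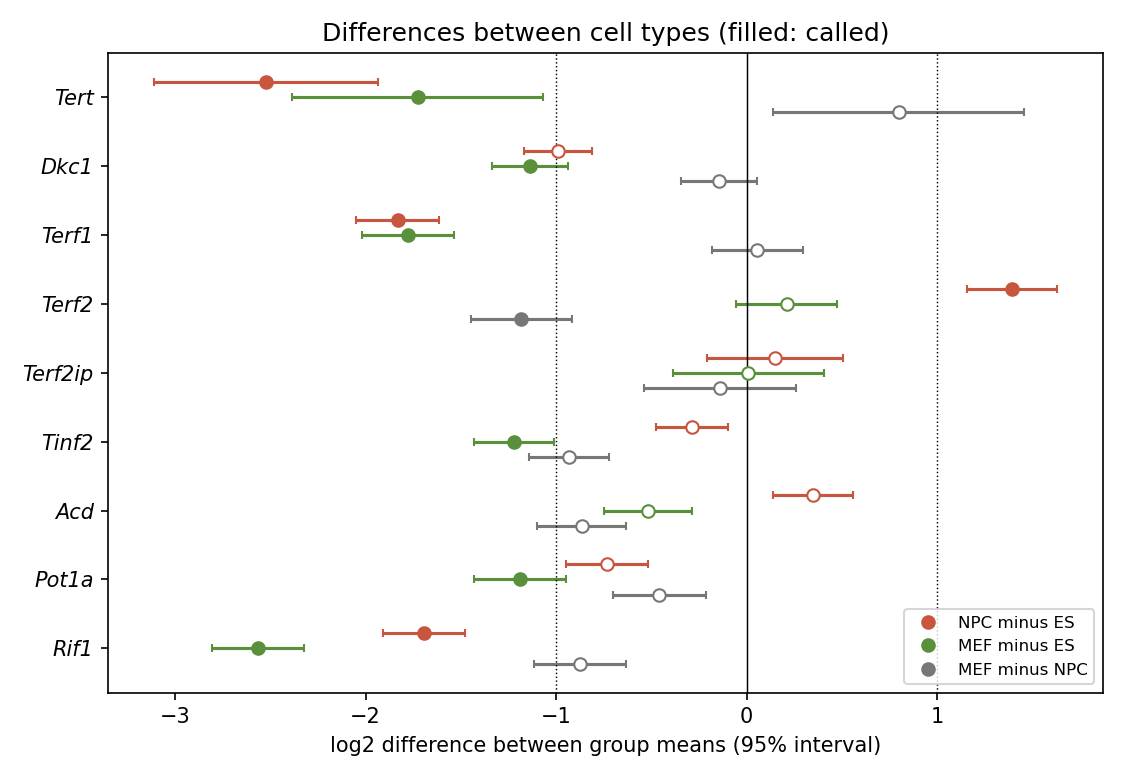
Log2 difference (horizontal axis) of each of the 9 genes in the 3 comparisons, as points with 95% intervals from limma; filled points were called and dotted lines mark differences of -1 and 1. Tert, Terf1 and Rif1 lie below -1 against ES cells in both NPC and MEF, and Terf2 lies above 1 in NPC.

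Tert was at 7.27, 6.54 and 6.47 in ES cells, 4.06, 4.04 and 4.62 in NPC and 4.89 and 5.19 in MEF. The 3 groups did not overlap, and ES 1 stood above the other ES arrays. As deposited, the intensity was 53.2 to 138 in ES cells, 0.346 to 7.24 in NPC and 17.3 to 27.6 in MEF. These values lay at percentiles 66.8 to 75.4 of an ES array, 1.45 to 30.2 of an NPC array and 39.4 to 47.6 of an MEF array, so the gene was in the dim range outside ES cells. Tert was 5.75-fold lower in NPC (-2.52, SE 0.26, limma adjusted p = 4.02e-05) and 3.31-fold lower in MEF (-1.73, SE 0.29, limma adjusted p = 0.000939), folds that the pseudocount of 16 understates.

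The order of the Tert levels was ES above MEF above NPC. The last step of 0.80 log2 units was not called (limma adjusted p = 0.0572, 95% interval 0.14 to 1.46), and it was called at the deposited scaling (1.04, adjusted p = 0.0181). A further Tert probe set, designed on the RefSeq transcript, was at 5.92 ± 0.23 (SD, n = 3) in ES cells, 4.57 ± 0.49 (n = 3) in NPC and 4.98 ± 0.08 (n = 2) in MEF. It was called for NPC (-1.35) and not for MEF (-0.95). The MEF call of the gene ended at a pseudocount of 64 (-0.97) and at a pseudocount of 1, where this further probe set becomes the brightest (-1.47, limma adjusted p = 0.176). Kept on its own probe set at a pseudocount of 1, Tert differed by -5.03 in NPC and -2.40 in MEF, and MEF minus NPC was 2.63 and called (limma adjusted p = 0.0248).

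Dkc1, whose protein binds the telomerase RNA and also modifies ribosomal RNA, had values of 11.05, 10.98 and 10.89 in ES cells, 10.08, 9.94 and 9.94 in NPC and 9.77 and 9.90 in MEF. Every ES array was above every array of the other groups. The difference was -0.99 in NPC (SE 0.08, limma adjusted p = 7.52e-06), just short of the minimum of 1. It passed without NPC 1 (-1.04) or ES 3 (-1.03), with array weights (-1.04), at a pseudocount of 1 and under the other scalings (-1.09 and -1.11). In MEF Dkc1 was 2.2-fold lower (-1.14, SE 0.09, limma adjusted p = 6.77e-06), and this call was lost to median centring (-0.67) and to the deposited scaling (-0.35). NPC and MEF differed by -0.15 (limma adjusted p = 0.237, 95% interval -0.35 to 0.05). The sign turned under the other scalings, to 0.42 under median centring (limma adjusted p = 0.0306) and 0.77 under the deposited one (limma adjusted p = 0.00429).

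Terf1, which binds telomeric double-stranded repeats, was at 9.79, 9.78 and 9.60 in ES cells, 7.85, 7.83 and 7.99 in NPC and 8.01 and 7.88 in MEF. The NPC and MEF arrays overlapped each other and lay far below the ES arrays. Terf1 was 3.56-fold lower in NPC (-1.83, SE 0.10, limma adjusted p = 5.13e-07) and 3.42-fold lower in MEF (-1.77, SE 0.11, limma adjusted p = 1.51e-06). At the deposited scaling the MEF difference was -0.98, short of the minimum. MEF minus NPC was 0.06 (limma adjusted p = 0.733, 95% interval -0.18 to 0.30). This depended on the scaling: it was 0.59 under median centring (limma adjusted p = 0.0126) and 0.94 under the deposited scaling (limma adjusted p = 0.00235), both below the minimum.

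Terf2, the paralogue of Terf1, which keeps chromosome ends from being joined, went the other way. It was at 7.41, 7.45 and 7.28 in ES cells, 8.65, 8.78 and 8.90 in NPC and 7.53 and 7.65 in MEF. The NPC arrays stood above all others, and the MEF arrays lay just above the ES arrays. Terf2 was 2.63-fold higher in NPC than in ES cells (1.39, SE 0.10, limma adjusted p = 5.28e-06), but averaging its probe sets gave 0.96, short of the minimum. It was 2.27-fold lower in MEF than in NPC (-1.18, SE 0.12, limma adjusted p = 4.86e-05), and this was not called after median centring (-0.63), at the deposited scaling (-0.29) or after averaging its probe sets (-0.68). MEF minus ES was 0.21 (limma adjusted p = 0.183, 95% interval -0.06 to 0.48), and at the deposited scaling 1.03 and called.

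**Figure D2:**
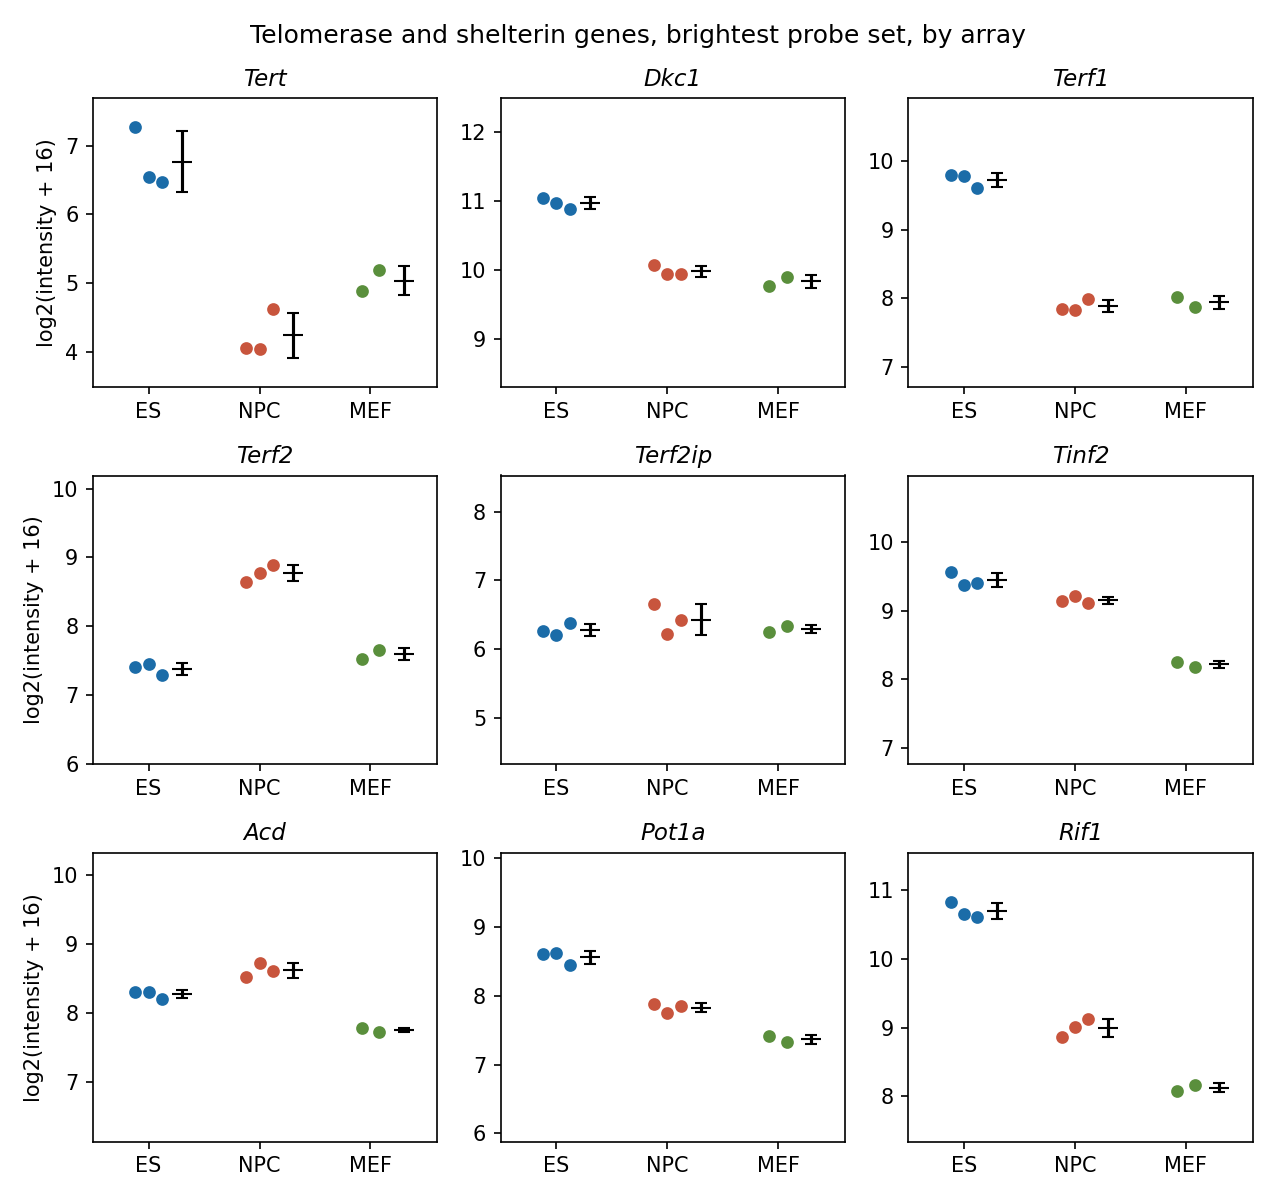
Log2(intensity + 16) of each gene on every array (points: 3 ES, 3 NPC, 2 MEF), with the group mean and SD in black beside them; all panels span the same height on the log2 scale. Terf1 and Tert are highest on the ES arrays, Terf2 on the NPC arrays, and Terf2ip overlaps in all groups.

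Among the bridging and partner proteins of shelterin, Terf2ip, which is bound by Terf2, was called in no comparison. It was at 6.26, 6.20 and 6.38 in ES cells, 6.66, 6.22 and 6.42 in NPC and 6.25 and 6.33 in MEF, and all groups overlapped. The NPC minus ES difference was 0.15 (limma adjusted p = 0.493, 95% interval -0.21 to 0.50). For MEF minus ES it was 0.01 (limma adjusted p = 0.974, 95% interval -0.39 to 0.41). The latter was 0.29 under median centring (limma adjusted p = 0.225) and 0.61 under the deposited scaling (limma adjusted p = 0.0407). As deposited, the intensity of this probe set was only 47.4 to 95.1, and the other Terf2ip probe sets were dimmer. The one designed on the RefSeq transcript averaged 5.06 in ES cells, 5.38 in NPC and 5.23 in MEF. The dimmest averaged 4.27, 4.31 and 4.40, near the bottom of the scale. Neither was called in any comparison.

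Tinf2, the hub to which Terf1, Terf2 and Acd bind, was at 9.56, 9.37 and 9.40 in ES cells, 9.14, 9.21 and 9.11 in NPC and 8.25 and 8.19 in MEF. MEF was lowest, and the NPC arrays lay just under the ES arrays. The MEF minus ES difference was -1.22 (SE 0.09, limma adjusted p = 6.07e-06). It was -0.74 with median centring, -0.42 at the deposited scaling and -0.38 with the mean of probe sets, none of them called. NPC minus ES was -0.29 (limma adjusted p = 0.0179), below the minimum.

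Acd, whose protein is also called TPP1 and brings telomerase to the chromosome end, was at 8.30, 8.30 and 8.20 in ES cells, 8.52, 8.73 and 8.60 in NPC and 7.77 and 7.73 in MEF. No groups overlapped, with NPC highest and MEF lowest, yet no comparison reached the minimum difference. NPC minus ES was 0.35 (limma adjusted p = 0.0114), MEF minus ES was -0.52 (limma adjusted p = 0.00251) and MEF minus NPC was -0.87 (limma adjusted p = 0.000152). At the deposited scaling both MEF differences changed sign, to 0.30 and 0.027. Acd had a single probe set.

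Pot1a, the partner of Acd on single-stranded repeats, was at 8.60, 8.62 and 8.46 in ES cells, 7.88, 7.75 and 7.85 in NPC and 7.42 and 7.32 in MEF. The groups stepped down in that order without overlap. NPC minus ES was -0.73 (SE 0.10, limma adjusted p = 0.000187), short of the minimum. In MEF the difference was -1.19 (SE 0.11, limma adjusted p = 1.79e-05), which became -0.73 with median centring, -0.40 at the deposited scaling, -0.99 at a pseudocount of 64 and -0.37 after averaging the probe sets. Mice carry a further copy, Pot1b, whose probe set was at 4.08 to 4.33 in ES cells, 4.19 to 4.47 in NPC and 4.16 and 4.30 in MEF. These values sit at the bottom of the scale, and the Pot1b groups overlapped.

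Rif1 differed most among the 9 genes between MEF and ES cells under all 3 scalings. It was at 10.82, 10.65 and 10.60 in ES cells, 8.86, 9.01 and 9.12 in NPC and 8.08 and 8.17 in MEF, and the 3 groups did not overlap. Rif1 was 3.23-fold lower in NPC (-1.69, SE 0.10, limma adjusted p = 8.7e-07) and 5.92-fold lower in MEF (-2.56, SE 0.11, limma adjusted p = 2.18e-07). Both calls held in every alternative run, with MEF values from -2.68 to -1.77. The step from NPC to MEF was -0.87 (limma adjusted p = 0.000183), below the minimum. It was -1.02 and called from the brightest of the probe sets free of shared sequence. The others of that kind gave -0.34 each and were not called. At the deposited scaling the step was 0.040.

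The 25 probe sets of the 9 genes were tested in a fit of all 45037. In NPC minus ES, 10 were called, 8 lower and 2 higher, where 17.9% of all probe sets were called, 8.99% higher and 8.86% lower. In MEF minus ES, 13 were called, all lower, where 19.4% of all were called, 9.82% higher and 9.54% lower. In MEF minus NPC, 2 were called, both lower, 1 each of Terf2 and Rif1, where 16.2% of all were called, 8.1% in each direction. Probe sets of a gene read the same RNA and are not replicates of each other.

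Rif1 had 4 probe sets, and all 4 were lower in NPC (-1.69 to -1.36) and in MEF (-2.68 to -1.70). All 3 Dkc1 probe sets were lower in MEF (-1.25 to -1.14), and in NPC they lay between -0.99 and -0.88, all short of the minimum. Of the 3 Terf1 probe sets, the first 2 by brightness gave -1.83 and -1.82 in NPC, and the dimmest gave -0.86. All 3 were called in MEF. Of the 3 Terf2 probe sets, 2 were higher in NPC (1.39 and 1.24), and the dimmest, at 4.14 to 5.35 on the 8 arrays, was not called (0.24).

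The other probe sets of Pot1a and Tinf2 did not follow the brightest. For Pot1a, 3 of the 4 were at 4.03 to 4.93 on every array and none was called, the NPC minus ES values being 0.05, -0.18 and 0.30 against -0.73 for the brightest. The dimmer Tinf2 probe set was at 5.08 to 6.02 and had differences of 0.22 in NPC and 0.47 in MEF, opposite in sign to the brightest and not called. The MEF calls of Tinf2 and Pot1a thus rest on 1 probe set each.

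**Figure D3:**
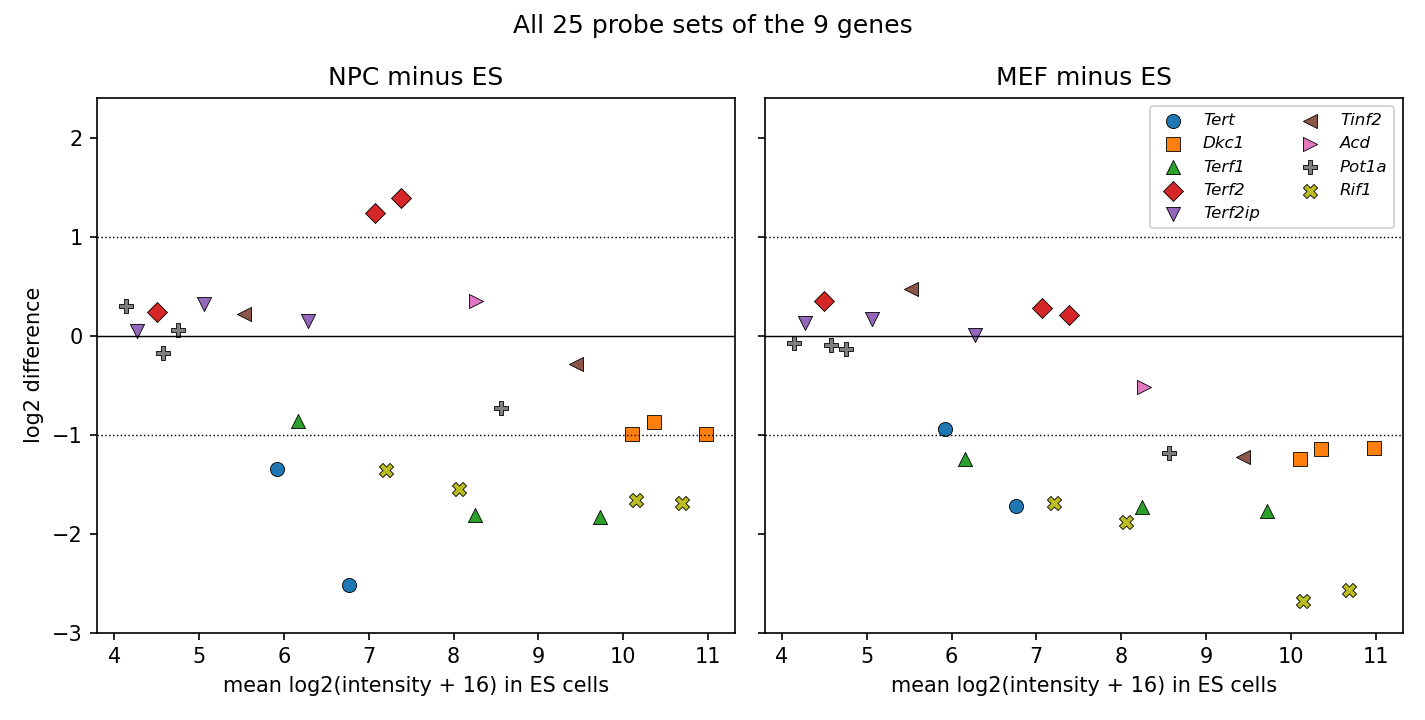
Log2 difference from ES cells (vertical axis) against the mean log2(intensity + 16) in ES cells for all 25 probe sets, NPC on the left and MEF on the right; each symbol is a probe set of the gene in the legend. The probe sets of Rif1 all lie below -1 in both panels, and the other 3 probe sets of Pot1a lie between -0.18 and 0.30 in NPC.

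For each gene called against ES cells, the genes with the most similar profile were sought by Euclidean distance between gene-centred log2 values over the 8 arrays. The 8 arrays form 3 groups, so likeness mostly means like group means. For Dkc1 these were Mcm6 (distance 0.193, Pearson r = 0.991), a subunit of the replicative helicase, Pole2, a subunit of DNA polymerase epsilon, and Hus1, a checkpoint clamp subunit. For Rif1 they were Txlng (distance 0.337, r = 0.994), Dna2, a replication nuclease, and C8g, which averaged 4.08 in MEF, near the bottom of the scale. For Terf1 they were Rasgrp4 (distance 0.160, r = 0.999), Pld6 and Tex11, and Pld6 and Tex11 are known from germ cells. Rasgrp4 and Tex11 averaged 4.10 and 4.16 in NPC and 4.16 and 4.33 in MEF, near the bottom of the scale. Terf1 averaged 7.89 and 7.95 there, so the likeness is of differences and not of level.

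Tert lay nearest Zfp941 (distance 0.511, r = 0.988), Pgap6 and Hal, all at 4.09 to 4.67 on average in NPC. Terf2 lay nearest Flot1 (distance 0.195, r = 0.995), Dennd5b and 1110065P20Rik. Tinf2 lay nearest Aarsd1 (distance 0.140, r = 0.995), Ccnh and Hpf1, and Pot1a nearest Babam2 (distance 0.187, r = 0.991), Med19 and D11Wsu47e.

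Other genes of telomere biology were read from 3 lists. Of all genes, 12.9% were called lower and 10% higher in NPC minus ES, and 12.8% and 12.2% in MEF minus ES. The counts below, of the lists and of the proliferation markers, stand beside these shares. Of the 14 genes listed for telomerase assembly, 12 were measured, and 5 were lower in NPC and none higher, with a median of -0.76. Ruvbl1 and Ruvbl2, the paired ATPases that help assemble the telomerase particle, were at -1.40 and -1.20. Parn, an exonuclease that matures the telomerase RNA, was at -1.44, with NPC 1 (7.68) above NPC 2 and NPC 3 (6.91 and 7.12), and the dyskerin chaperone Shq1 was at -1.23. Wrap53, which takes telomerase to Cajal bodies, was at -1.03 and lost its call in 7 of 19 alternatives. Of the proteins that sit with dyskerin on the RNA, Nop10 (0.19), Nhp2 (-0.21) and Gar1 (-0.57) were not called in NPC.

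In MEF, 8 of the 12 were lower and none was higher, with a median of -1.12. The largest were Ruvbl2 (-1.62), Naf1 (-1.50), an assembly factor of the same RNA particles, and Parn (-1.29). Nop10 (-1.12) and Nhp2 (-1.05) were also lower, and Tgs1, which caps the telomerase RNA, was at -1.17. Between MEF and NPC, 2 of the 12 were lower in MEF, Nop10 (-1.31) and Tgs1 (-1.19), and 1 was higher. Of all genes, 7.95% were called lower and 10.5% higher there. The higher one, Wrap53, was 1.09 higher in MEF than in NPC, where it was at 5.57 to 6.21 against 6.76 and 7.07 on the MEF arrays. That call ended in 4 of 19 alternatives, those without NPC 3 or MEF 1 included, with values from 0.67 to 1.76.

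Of 19 genes for end replication and shelterin partners, 4 were lower and 3 higher in NPC, with a median of -0.54. The CST complex, which fills in the strand opposite telomerase, divided: Ctc1 (-1.25) and Stn1 (-1.04) were lower and Ten1 (1.26) was higher. The Stn1 call was lost in 5 of 19 alternatives, among them median centring, the average of its probe sets, and the fits without ES 3 or NPC 3, with values from -1.19 to -0.56. The Ctc1 call was lost to the average of probe sets. Ten1 was at 7.05 to 7.34 in ES cells, 7.94 to 8.82 in NPC and 6.73 and 6.79 in MEF. Hmbox1, which binds telomeric repeats directly, was 1.64 higher in NPC, and Fbxo4, a ubiquitin ligase subunit that targets Terf1, was 1.27 higher. The helicase gene Blm was 1.66 lower and the tankyrase gene Tnks2 was 1.31 lower.

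In MEF, 5 of the 19 were lower and 2 were higher, with a median of -0.65. Blm (-2.23), Ctc1 (-1.90) and Timeless (-1.88), a replication fork protein, were lowest. Fbxo4 was 2.00 higher, at 6.98 and 7.29 against 4.92 to 5.34 in ES cells, and the kinase gene Nek7 was 1.32 higher. Timeless, Ten1 and Hmbox1 were lower in MEF than in NPC, at -1.23, -1.71 and -1.51.

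Of 18 genes for end signalling and recombination, 16 were measured. In NPC, 2 were lower and none was higher (median -0.30): Mre11a, a nuclease of the break-sensing complex, at -1.91 and the checkpoint kinase gene Atr at -1.74. These 2 of 16 are near the 12.9% of all genes called lower. The Mre11a calls in NPC and MEF ended without probe sets of shared sequence and with the probe sets averaged, and over all alternatives the values reached -0.01 and 0.06. In MEF, 6 were lower and 1 was higher (median -0.67), Mre11a at -1.26, Atm at -1.21 and Mad2l2, which limits resection at deprotected ends, at -1.19 against the excision repair gene Ercc1 at 1.77. Mad2l2 and Atm were also lower in MEF than in NPC, at -1.72 and -1.22, and Ercc1 was higher at 1.10.

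Over the 3 lists 14 of 47 genes were called in NPC minus ES, beside 22.9% of all genes, and 22 of 47 in MEF minus ES, beside 25%. The latter became 8 under median centring and 9 under the deposited scaling, where 26.3% and 30.1% of all genes were called. Under both of these scalings the lists thus fell below the share of all genes called in either direction. Of those calls over all genes, 65.1% and 79.4% were higher in MEF, so this does not compare the genes called lower. Of the MEF minus ES calls named, those of Blm, Ctc1, Timeless, Fbxo4, Nek7 and Ercc1 held under both, those of Ruvbl2 and Naf1 under median centring, and the others under neither. Of the MEF minus NPC calls named, those of Wrap53 and Ercc1 held under both, and those of Ten1, Hmbox1 and Mad2l2 under median centring. Those of Nop10, Tgs1, Timeless and Atm held under neither. Averaging the probe sets took the NPC calls from 14 to 7, where 18.7% of all genes were called. The NPC calls of Wrap53, Fbxo4, Tnks2, Ctc1, Stn1, Mre11a and Atr ended there, as did both Ercc1 calls. Among the 8 proliferation markers, 4 were lower in NPC (median -0.87) and 4 in MEF (median -1.19), and none was higher. Top2a was at -1.16 in NPC and -1.43 in MEF, and Mcm2 at -1.13 and -1.63. Mki67 was not called, at 0.12 and -0.38.

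**Figure D4:**
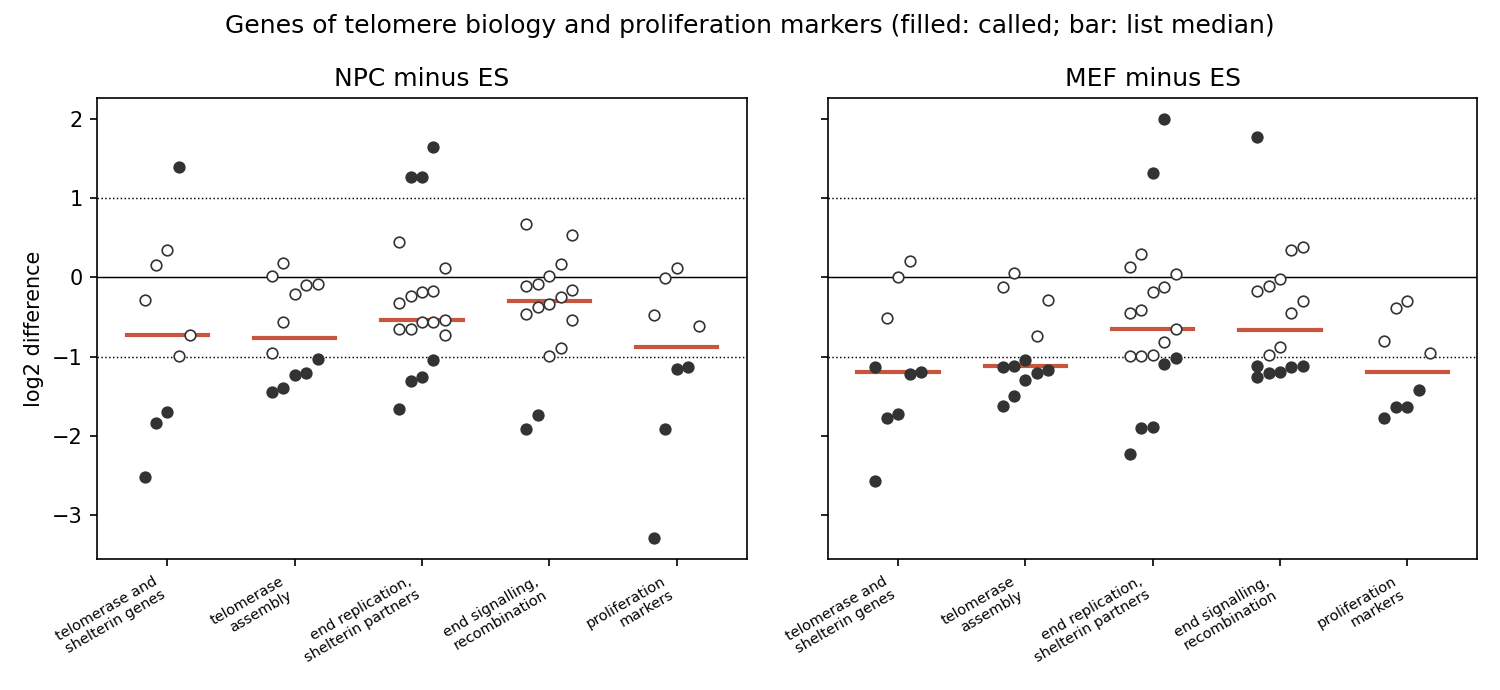
Log2 difference from ES cells (vertical axis) for the telomerase and shelterin genes, 3 lists of other telomere genes and the proliferation markers, NPC on the left and MEF on the right; filled points were called and bars are list medians. In both panels all 5 medians lie below 0.

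The scaling moved the MEF comparisons far more than NPC minus ES. As deposited, the MEF arrays were the brightest, with a trimmed mean intensity of 232 on both against 111 to 153 on the others. In NPC minus ES, the 9 genes kept their sign under quantile normalization, median centring and the deposited scaling. In MEF minus ES, the deposited scaling put the median of all genes at 0.32 and the share of calls higher in MEF went from 48.9% to 79.4%, with 65.1% under median centring. Under these 3 scalings Tert was at -1.73, -1.67 and -1.34, Terf1 at -1.77, -1.30 and -0.98, and Rif1 at -2.56, -2.09 and -1.77. In MEF minus NPC the deposited scaling put the median of all genes at 0.43, and the share of calls higher in MEF went from 56.9% to 74.2% with median centring and 87.6% as deposited.

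**Figure D5:**
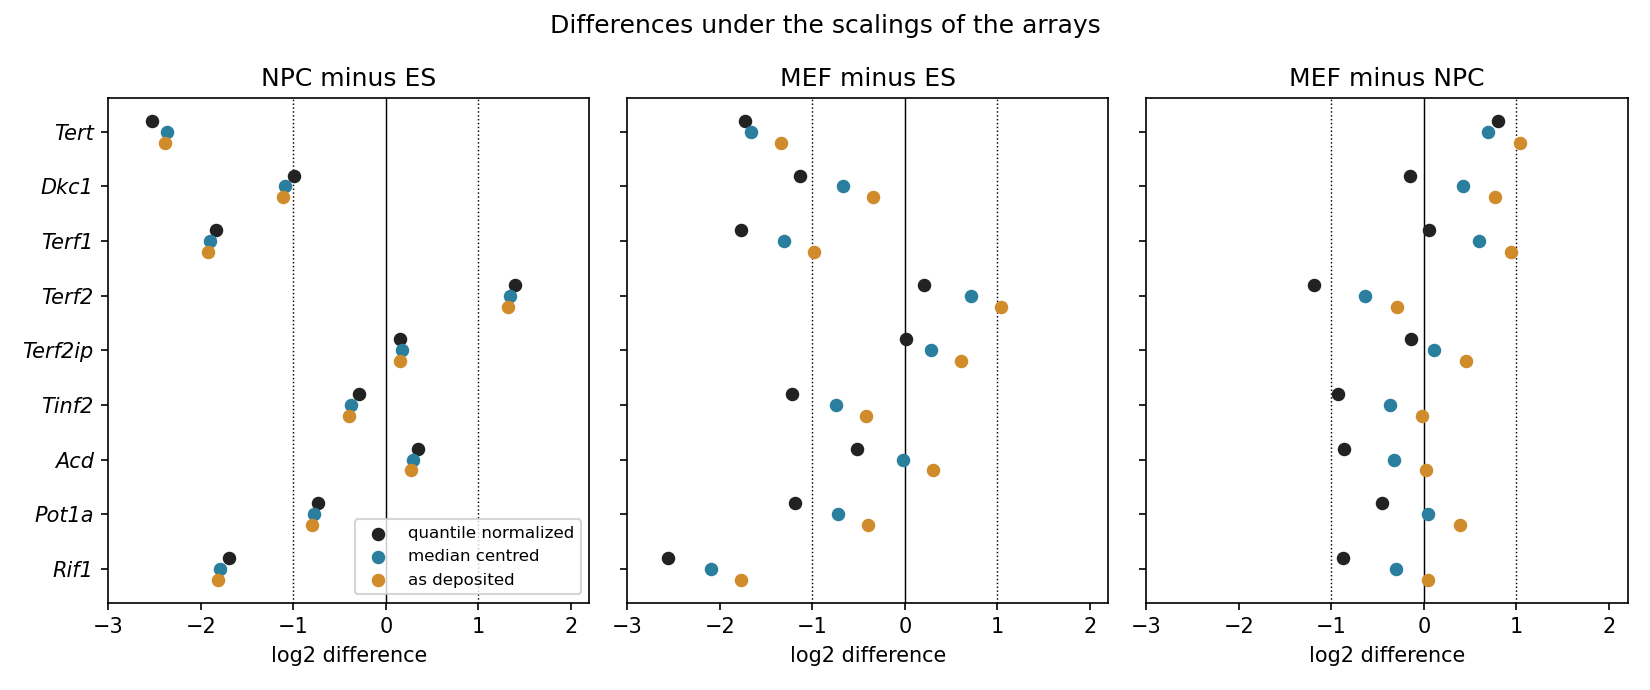
Log2 difference (horizontal axis) of each gene in the 3 comparisons under quantile normalization, median centring and the deposited scaling; dotted lines mark -1 and 1. The 3 points of a gene lie close together in NPC minus ES and spread in the MEF comparisons, where Acd crosses 0 and Rif1 stays below -1 against ES cells.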

How the data were processed

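Total RNA of 8 samples (3 ES, 3 NPC, 2 MEF) was hybridised to mouse whole-genome oligonucleotide arrays. The deposited values are linear probe set intensity. The submitters' processing notes name GCOS 1.4, and how it summarised and scaled the arrays is not given in the sources used here. No detection calls were used, and no depth exists for arrays: their number limits the precision.

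Of the probe sets, 64 were controls and stayed out. Of the other 45037, 34945 were listed with 1 gene, 932 with several and 9160 with none. The scale is log2(intensity + 16), and quantile normalization followed. A single limma fit (version 3.58.1, R 4.3.3, variance trend) held all 8 arrays, with Benjamini-Hochberg adjustment over all genes or all probe sets. The fit was tested on simulated data without scaling differences between arrays, so that test cannot judge the scaling. Replicate numbers were not used to pair the arrays in this fit. Named genes were the members, the largest called changes of each list (up to 3 a direction), Pot1b and Ctc1, nearest profiles and markers; Stn1, Nhp2 and Gar1 were added with their values seen. The members, lists and tests were chosen with earlier results of these data known. The unmeasured genes of the lists were not analysed here. Promoter sequences were from RefSeq (GRCm38.p6); those of Terf1 and Rif1 were not used here.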

Additional observations from a re-analysis of the deposited data

How the results depend on the processing

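Results were recomputed under up to 21 alternatives (19 for probe set counts and at most 19 for single genes; Acd had 18), among them other scalings, pseudocounts, filters, probe set rules, variance models, thresholds and each array left out. Of 510 recomputed member differences, 472 kept direction and call, 16 lost the call, 9 gained it and 13 changed sign. The cause was not tested. The sign changes were all in MEF comparisons. With median centring, MEF minus NPC became 0.42 for Dkc1, 0.11 for Terf2ip and 0.048 for Pot1a. At the deposited scaling it became 0.77, 0.45 and 0.39 for these, 0.027 for Acd and 0.040 for Rif1, and MEF minus ES became 0.30 for Acd. Terf1 in MEF minus NPC was -0.081 with the mean of probe sets and -0.010 to 0.125 with an array left out (lowest without MEF 1). Terf2ip in MEF minus ES was -0.031 to 0.060 with an array left out, below 0 without ES 2 or MEF 2.

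The members called (4, 6 and 1 in NPC minus ES, MEF minus ES and MEF minus NPC) became 3 in MEF minus ES under both median centring and the deposited scaling. In MEF minus ES they were 4 with a pseudocount of 64 (16.2% of all genes called) or the mean of probe sets (20.6%). They were 5 with a pseudocount of 1 (29.9%). In NPC minus ES they were 3 with the mean of probe sets (18.7% of all genes). They were 5 under median centring (22.3%), the deposited scaling (22.4%), array weights (23.9%) or a pseudocount of 1 (28.9%). Smaller changes of the counts are given in part. In MEF minus NPC the members called became 0 with median centring (21.2% of all genes) or the mean of probe sets (15.2%). They were 2 without shared sequence (17.6%). With no minimum difference they were 8 in NPC minus ES (46.9% of all genes) and 5 in MEF minus NPC (39.3%). Member probe sets called (10, 13 and 2) became 8 in MEF minus ES under either other scaling. In MEF minus NPC they became 0 with median centring, 1 at the deposited scaling or with a pseudocount of 64, 4 with a pseudocount of 1, and 7 with no minimum (17 in NPC minus ES). The share of all probe sets called under these alternatives was not recorded. Genes of the telomere lists called (14, 22 and 9) became 7 in NPC minus ES with the mean of probe sets, and 8 and 9 in MEF minus ES under the other scalings. The 9 of 47 in MEF minus NPC stand beside 18.5% of all genes. With no minimum the list genes were 31 in NPC minus ES (46.9% of all genes) and 24 in MEF minus NPC (39.3%). With a pseudocount of 64 the list genes called were 10 in NPC minus ES and 16 in MEF minus ES, where 14.5% and 16.2% of all genes were called.

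Leaving out each array gave 4 to 5, 6 and 1 members called, 10 to 12, 13 to 14 and 1 to 3 member probe sets, and 12 to 16, 21 to 24 and 8 to 10 list genes. The 1 probe set was without MEF 1. Deviations of same-numbered ES and NPC arrays correlated at -0.0199 to -0.00211, and those of differently numbered ones at -0.0261 to 0.0397. With so few arrays a group, this cannot tell whether a shared number links arrays. With the replicate block, 4, 6 and 1 members were called, and 10, 13 and 2 probe sets and 14, 24 and 9 list genes. Signal over background limits Tert, Pot1b and the dim probe sets of Pot1a, Terf2 and Terf2ip. The folds of Tert are understated, and the others had no called difference.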
